A study of Mus musculus with 2 samples.

Results

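Red blood cells reach the testis through its blood vessels, so RNA from whole testes can carry their transcripts. Whether red cell precursors were present in these testes was not tested. The red cell genes described here were Hbb-bs, Hbb-bt, Hba-a1, Hba-a2, Alas2, Slc4a1 and Car2, 7 of the 39695 gene entries measured by RNA-seq in testes of 9-day-old (P9) mice. They were chosen by symbol, on the RPKM values of these same libraries in earlier work, so their differences between the libraries are given as a description, without a test. One library came from control testes (n = 1) and the other from Bcas2F/-;Vasa-Cre testes (n = 1). Per the study's methods, 1 Bcas2 allele of control males was floxed and the other deleted, and no Cre was present, whereas Bcas2F/-;Vasa-Cre males had these alleles together with Vasa-Cre, a transgene active in germ cells. Both groups thus shared the deleted allele. The labels give the strain as C57BL/6, whereas the methods describe a mixed background, and the number of mice per library is not given in the sources used here. With 1 library per genotype, no difference below has a replicate check, and intervals cover counting error only. PCR-amplified reads are not independent molecules, so the intervals are at best lower limits of the error.

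Values are RPKM, the reads on a gene scaled to gene length and to the number of counted reads in the library. The number of counted reads, inferred from the RPKM values, was 19918750 in the control library and 19331687 in the Bcas2F/-;Vasa-Cre library. These numbers are not the sequencing depth, and the study reported more mapped reads for both libraries. Bcas2 itself, on chromosome 3 from 103171655 to 103179166 (GRCm38), was at 39.5 RPKM in the control and 25.7 RPKM in the Bcas2F/-;Vasa-Cre library, from 1410 and 888 reads. The testis was present as labelled, with Clu, a Sertoli cell gene, at 2593 and 2813 RPKM and Dazl, a germ cell gene, at 165 and 125 RPKM.

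Adult haemoglobin is a tetramer of α-globin and β-globin chains, each holding a haem group. In the C57BL/6 mouse, Hba-a1 and Hba-a2 encode the α chain and Hbb-bs and Hbb-bt the β chain. Alas2 encodes the erythroid 5-aminolevulinate synthase, the first and rate-limiting enzyme of haem synthesis. Slc4a1 encodes band 3, the chloride-bicarbonate exchanger that also anchors the red cell membrane to its skeleton, and Car2 encodes carbonic anhydrase 2, which interconverts carbon dioxide and bicarbonate. Reticulocytes, the youngest red cells of the blood, have lost their nucleus but still carry mRNA, most of it globin mRNA, whereas nucleated precursors also transcribe genes for membrane proteins. Car2 and Slc4a1 are also known outside red cells, in osteoclasts and the kidney for example.

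The genes of each globin pair are so alike that many short reads match both. Their coding difference is shown here because it is the only coding base at which a read can be assigned within a pair, while the rest of the separation lies outside the coding sequence. In the longest coding transcripts of GENCODE M21, the coding sequences of Hba-a1 and Hba-a2 were 429 bases each and differed at 1 base, C381T, counted from the A of the start codon, with the base of Hba-a1 first. Those of Hbb-bs and Hbb-bt were 444 bases each and also differed at 1 base, C417T, with the base of Hbb-bs first. Bases 367 to 395 of the α coding sequences and bases 403 to 431 of the β coding sequences read as follows, 5′ to 3′, with the differing base in capitals.
Hba-a1: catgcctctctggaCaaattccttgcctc
Hba-a2: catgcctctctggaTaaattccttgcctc
Hbb-bs: gtggctggagtggcCgctgccctggctca
Hbb-bt: gtggctggagtggcTgctgccctggctca

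Likeness was also measured over whole transcripts, with the coding part included. Of all stretches of 50 bases in the longest transcript of Hba-a1, 67.5% were present unchanged in that of Hba-a2, and 86.9% in the other direction. For Hbb-bs and Hbb-bt these shares were 65.8% and 58.3%. The longest transcripts also differ in length, for example 699 bases for Hba-a1 and 554 for Hba-a2. The shares therefore do not measure likeness outside the coding sequence alone. How reads matching both genes of a pair were counted is not given in the sources used here, so the separate values of each pair are uncertain and their sums are given as well.

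The sequences before the start sites differed more between the β genes than between the α genes. Over the 150 bases before the RefSeq start (GRCm38.p6), the α genes were 96.1% identical in an alignment with 147 identical of 153 positions, and the β genes 70.9%, with 107 of 151. Promoter sequences were matched for 5 of the 7 genes, all but Slc4a1 and Car2. They were searched on both strands for 4 motifs known from red cell promoters, namely the GATA word (AGATAA, also with T as its first or G as its last base), the CACCC word (CCNCNCCC), the CCAAT box and the TATA box (TATAA). In the 250 bases before the start, these motifs were held by 26.5%, 45.9%, 33.8% and 22.8% of all 32851 RefSeq promoters, in that order, so single matches are common. Bases −97 to −68 before the start are shown first, on the gene's strand, because the CCAAT boxes of the globin genes lie there, with whole matches in capitals. Positions of matches are those of their upstream end.
Hbb-bs, chr7:103827996-103828025, minus strand: agagCCACACCCtggtaagggCCAATctgc
Hbb-bt, chr7:103813991-103814020, minus strand: cagggtaacaccctggcATTGGCCAATctg
Hba-a1, chr11:32283575-32283604, plus strand: acaaaccagCCAATgagaactgctccaagg
Hba-a2, chr11:32296395-32296424, plus strand: aaccagCCAATgagaactgctccaagggcg
Alas2, chrX:150547320-150547349, plus strand: tactttgctttTTATCTttagcagaggcct
Bases −40 to −11, which hold the TATA boxes of the globin genes, are shown in the same way.
Hbb-bs, chr7:103827939-103827968, minus strand: agggcagagcaTATAAggtgaggtaggatc
Hbb-bt, chr7:103813934-103813963, minus strand: cagcATTGGgtaTATAAagctgagcagggt
Hba-a1, chr11:32283632-32283661, plus strand: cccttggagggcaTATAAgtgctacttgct
Hba-a2, chr11:32296452-32296481, plus strand: ttggagggcaTATAAgtgctacttgctgca
Alas2, chrX:150547377-150547406, plus strand: GGGTGGGGTGGGGtGGGCGGGGctgagcag
All 4 globin genes held a CCAAT box and a TATA box in these stretches. In Hbb-bs a CACCC match at −93 and a CCAAT box at −76 stood together. In Hbb-bt the CACCC match lay further upstream, at −107, and CCAAT matches on opposite strands adjoined each other at −80 and −75, with another opposite-strand match at −36. A GATA match was found at −210 in Hbb-bs, at −183 in Hba-a1, at −186 in Hba-a2 and, on the opposite strand, at −86 in Alas2. Hbb-bt had no match to these GATA words in the 250 bases. Alas2 had 4 overlapping or neighbouring CACCC matches on the opposite strand between −42 and −19. A match describes letters and not a bound factor, and the RNA values below do not test any of them.

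The main pattern in the data was a split among the red cell genes. Summed globin mRNA was almost level between the libraries, whereas Slc4a1 was 25.9-fold lower and Car2 5.27-fold lower in the Bcas2F/-;Vasa-Cre library. In RNA of whole testes, fewer cells of a type and less RNA per cell cannot be told apart. Of the globin genes, only Hbb-bt was lower by more than 2-fold. On the scale of RPKM + 1, Slc4a1, Car2 and Hbb-bt, 3 of the 7 genes, were lower by more than 2-fold, against 0.378% of the 14831 entries with an average RPKM of 1 or more over both libraries. The same 3 were the only ones lower by more than 1.5-fold, against 1.69% of these entries. All counts of genes past 1.5-fold or 2-fold below are on this scale, which understates the difference of low genes, whereas folds given for single genes are of plain RPKM. All 7 genes passed that limit. They were listed with these differences known, so nothing is read from the excess over the background. The median log2 ratio of the 7 genes was −0.38, and that of all 14831 entries was 0.02. Of these entries, 6873 were lower and 7958 higher in the Bcas2F/-;Vasa-Cre library.

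Hbb-bs (ENSMUSG00000052305, chromosome 7 from 103826534 to 103828096, minus strand, GRCm38) had the highest level of the red cell genes. Its level was 551 RPKM in the control and 596 RPKM in the Bcas2F/-;Vasa-Cre library, from 6348 and 6664 reads. The log2 ratio of RPKM + 1, Bcas2F/-;Vasa-Cre over control, was 0.11, and the ratio of plain RPKM had a 95% Clopper-Pearson interval of 0.06 to 0.16 in log2 units, and all intervals of single genes below are of this kind. Hbb-bs was higher by a small margin outside its counting error, and the other 6 genes were lower. Of the 243 entries within 2-fold of its average RPKM, 220 had a ratio as low or lower.

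Hbb-bt (ENSMUSG00000073940, chromosome 7 from 103812524 to 103813996, minus strand), the other adult β-globin gene, was lower in the Bcas2F/-;Vasa-Cre library. It was at 42.4 RPKM in the control and 20.3 RPKM in the Bcas2F/-;Vasa-Cre library, from 594 and 276 reads. The log2 ratio was −1.03, with an interval of −1.27 to −0.85. Of the 4970 entries within 2-fold of its average RPKM, 5 were as low or lower, itself included. Hbb-bt lies just past the 2-fold limit, and its interval spans that limit. The next of the red cell genes, Alas2, lies well inside it.

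Hba-a1 (ENSMUSG00000069919, chromosome 11 from 32283511 to 32284465, plus strand) was at 197 RPKM in the control and 164 RPKM in the Bcas2F/-;Vasa-Cre library, from 2344 and 1898 reads. Its log2 ratio was −0.26, with an interval of −0.35 to −0.17. Hba-a2 (ENSMUSG00000069917, chromosome 11 from 32296489 to 32297298, plus strand) was at 155 RPKM and 149 RPKM, from 1623 and 1508 reads. Its log2 ratio was −0.06, with an interval of −0.16 to 0.04, so no difference in Hba-a2 was detectable at this depth. Of the entries within 2-fold of their average RPKM, 57 of 1103 were as low as Hba-a1 or lower and 488 of 1379 as low as Hba-a2 or lower. The small difference in Hba-a1 lies outside its counting error. Its ratio is in the lower part of the range of entries of like level, which reaches −0.84.

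**Figure D1:**
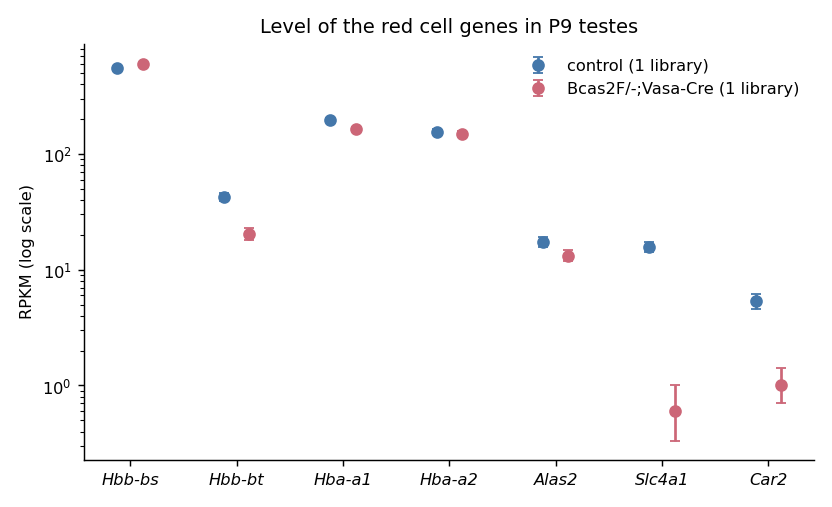
RPKM on a log axis of each red cell gene in the control library (blue) and the Bcas2F/-;Vasa-Cre library (red), 1 library each, with exact 95% Poisson intervals of the reads as bars. Hbb-bs, Hba-a1 and Hba-a2 lie side by side at 149 to 596 RPKM in both libraries, whereas Slc4a1 goes from 15.7 to 0.607 RPKM and Car2 from 5.33 to 1.01 RPKM.

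Because reads divide uncertainly within each pair, the pairs were also summed. A sum does not restore reads left out for matching both genes, if any were. Globin levels, their shares of reads and their ratios to other genes may then be too low. The α-globin genes together were at 353 RPKM in the control and 313 RPKM in the Bcas2F/-;Vasa-Cre library, from 3967 and 3406 reads, and the log2 ratio of their shares of all reads was −0.18 with an interval of −0.24 to −0.11. The β-globin genes together were at 594 and 617 RPKM, from 6942 and 6940 reads, which gives a log2 ratio of 0.04 (interval −0.01 to 0.09). All 4 genes together were at 946 and 930 RPKM, which gives a log2 ratio of −0.03 (interval −0.07 to 0.01). Globin reads made up 0.0548% of the reads of the control and 0.0535% of those of the Bcas2F/-;Vasa-Cre library. The summed globin level therefore differed by less than its counting error, and the sign of that small difference turned when RPKM was rescaled to the same total in both libraries. This stood in contrast to Slc4a1, Car2 and Alas2 together, with 996 and 367 reads and a log2 ratio of −1.40 (interval −1.57 to −1.22). Within that sum, Slc4a1 had 373 and 14 reads and Car2 190 and 35, whereas Alas2, at 433 and 318, differed far less.

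The balance within the globin genes differed most in the β pair. The ratio of Hbb-bs to Hbb-bt was 13.0 in the control and 29.4 in the Bcas2F/-;Vasa-Cre library, 2.26 times as high with an interval of 1.95 to 2.63. Hbb-bt made up 7.14% of the β-globin level in the control and 3.29% in the Bcas2F/-;Vasa-Cre library. The ratio of Hba-a1 to Hba-a2 differed less, at 1.27 and 1.10, which is 0.871 times with an interval of 0.794 to 0.957. The ratio of β to α globin was 1.68 in the control and 1.97 in the Bcas2F/-;Vasa-Cre library, 1.16 times as high with an interval of 1.10 to 1.23. In these intervals only the counting of reads is covered, and the division of reads between the near-identical genes of a pair is not. The β-globin locus differs between inbred strains, and the methods describe a mixed background. Alleles could not be examined from RPKM values. Whether the mice of both libraries carried the same β-globin alleles was therefore not tested, and the values of Hbb-bs and Hbb-bt carry this limit as well.

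Apart from Cygb, the other globin genes had little or no signal. The embryonic β-type genes Hbb-y and Hbb-bh1, the embryonic α-type gene Hba-x, and Hbb-bh0, Hbb-bh2 and Hbq1a, 6 of the 10 other globin genes matched, were listed at 0 in both libraries. Hbb-b1 and Hbb-b2 were not matched to an entry. Cygb, which encodes cytoglobin of fibroblast-like cells, was the only one of the other globin genes with an average RPKM of at least 1, at 14.6 RPKM in the control and 16.8 RPKM in the Bcas2F/-;Vasa-Cre library, a log2 ratio of 0.18. An exact 0 does not show absence, since Rhox5, a Sertoli cell gene, was also listed at 0 in both libraries.

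Alas2 (ENSMUSG00000025270, chromosome X from 150547375 to 150570638, plus strand) was at 17.4 RPKM in the control and 13.2 RPKM in the Bcas2F/-;Vasa-Cre library, from 433 and 318 reads. Its log2 ratio was −0.38, with an interval of −0.62 to −0.19, which puts it in the middle of the 7 genes and inside the 1.5-fold limit. Of the 5183 entries within 2-fold of its average RPKM, 180 were as low or lower. The level of the 4 globin genes was 54.2 times that of Alas2 in the control and 70.4 times in the Bcas2F/-;Vasa-Cre library, 1.29 times as high with an interval of 1.112 to 1.501.

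The other enzymes of haem synthesis, which most cells use, differed less than Slc4a1 and Car2. All 8 had an average RPKM of at least 1, and 6 were lower and 2 higher in the Bcas2F/-;Vasa-Cre library, with a median log2 ratio of −0.11. Alad, the second enzyme of the pathway, was the only one past 1.5-fold, at 147 RPKM in the control and 91.7 RPKM in the Bcas2F/-;Vasa-Cre library, which gives a log2 ratio of −0.67 (interval −0.75 to −0.61). Alas1, the synthase used by other tissues, was at 35.3 and 34.7 RPKM. Fech, which inserts the iron, was at 25.4 and 23.5 RPKM. The 8 iron uptake and delivery genes with an average RPKM of at least 1, such as Tfrc, the transferrin receptor, at 76.7 and 70.6 RPKM, were divided evenly, with 4 lower and 4 higher, a median of −0.02 and none past 1.5-fold. Slc25a37, the mitochondrial iron importer of red cell precursors, was at 9.01 and 7.31 RPKM, a log2 ratio of −0.27.

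Slc4a1 (ENSMUSG00000006574, chromosome 11 from 102348824 to 102366203, minus strand) was at 15.7 RPKM in the control and 0.607 RPKM in the Bcas2F/-;Vasa-Cre library, from 373 and 14 reads. The log2 ratio was −3.38 on the scale of RPKM + 1. Without the pseudocount it was −4.69, with an interval of −5.58 to −3.93. Of all 14831 entries, 2 were as low or lower, itself included. The level of Alas2 was 1.11 times that of Slc4a1 in the control and 21.8 times in the Bcas2F/-;Vasa-Cre library, so these red cell genes, close in deposited RPKM in the control, stood far apart in the other library. The ratio of the 4 globin genes to Slc4a1 was 60.3 and 1533.

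Car2 (ENSMUSG00000027562, chromosome 3 from 14886273 to 14900770, plus strand) was at 5.33 RPKM in the control and 1.01 RPKM in the Bcas2F/-;Vasa-Cre library, from 190 and 35 reads. Its log2 ratio was −1.65 on the scale of RPKM + 1 and −2.40 without the pseudocount, with an interval of −2.96 to −1.87. Of the 3517 entries within 2-fold of its average RPKM, 10 were as low or lower, itself included.

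**Figure D2:**
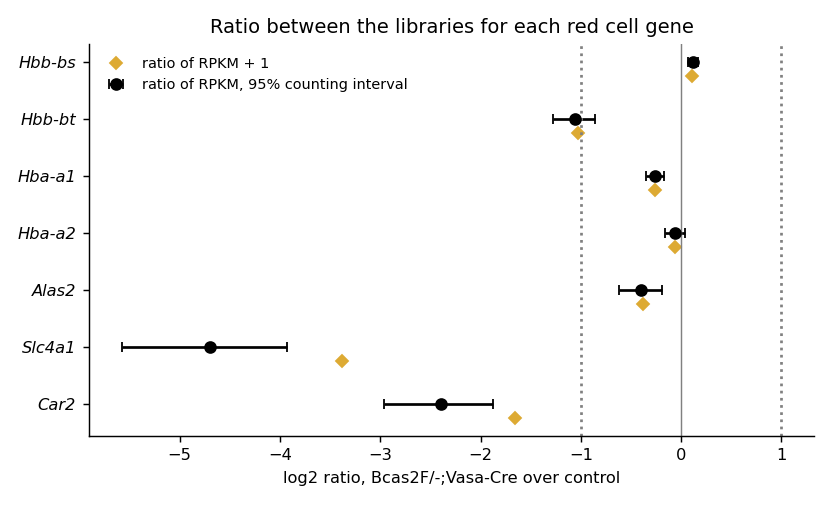
Log2 ratio of Bcas2F/-;Vasa-Cre over control for each red cell gene, as the ratio of RPKM with its 95% Clopper-Pearson interval of the reads (black) and as the ratio of RPKM + 1 (yellow), and dotted lines mark 2-fold. Slc4a1 at −4.69 and Car2 at −2.40 lie far to the left, Hbb-bt at −1.06 sits at the 2-fold line, and Hba-a2 at −0.06 has an interval that includes 0.

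By deposited RPKM, the order of the levels differed between the libraries only at its lower end. In the control it was Hbb-bs, Hba-a1, Hba-a2, Hbb-bt, Alas2, Slc4a1 and Car2, and in the Bcas2F/-;Vasa-Cre library Slc4a1 came last. In the control, Alas2 with an exact Poisson interval of 15.8 to 19.2 RPKM and Slc4a1 with 14.1 to 17.4 RPKM did not differ beyond counting error. In the Bcas2F/-;Vasa-Cre library, Car2 with 0.705 to 1.41 RPKM and Slc4a1 with 0.332 to 1.02 RPKM overlapped as well. This order is that of the deposited values and depends on the gene lengths behind them, which are not given in the sources used here. For Slc4a1 a length of 1194 bases or any of several multiples of it gave whole reads, whereas its longest coding transcript has 4545 bases, so its place in the order is uncertain. The ratios between libraries do not depend on that length.

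**Figure D3:**
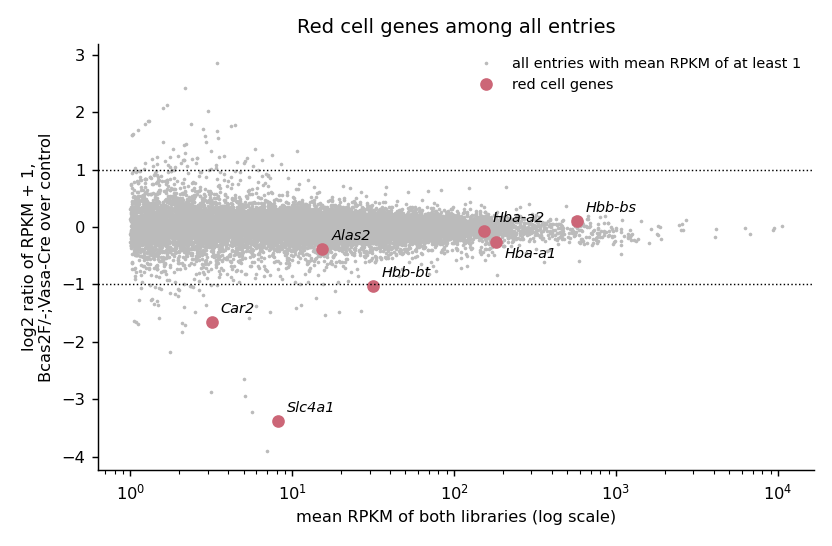
Average RPKM of both libraries (log axis) against the log2 ratio of RPKM + 1, Bcas2F/-;Vasa-Cre over control, for the 14831 entries with an average RPKM of at least 1 (grey) and the red cell genes (red), with dotted lines at 2-fold. Slc4a1 at −3.38, Car2 at −1.65 and Hbb-bt at −1.03 lie below nearly all entries of like level, whereas Hbb-bs at 0.11 and Hba-a2 at −0.06 lie among them.

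Other genes of the Slc4a1 and Car2 families were examined as well. Of the other Slc4 bicarbonate transporters, 7 of 9 had an average RPKM of at least 1, and 6 of these were higher and 1 lower in the Bcas2F/-;Vasa-Cre library, with none past 1.5-fold and a median log2 ratio of 0.08. Slc4a2, the anion exchanger found in most tissues, was at 98.9 RPKM in the control and 112 RPKM in the Bcas2F/-;Vasa-Cre library, and Slc4a3 at 23.7 and 27.9 RPKM. Of the other carbonic anhydrases, 5 of 15 had an average RPKM of at least 1, and 3 of these were lower and 2 higher, none past 1.5-fold on the scale of RPKM + 1. Car6, the secreted carbonic anhydrase, was at 0.981 and 1.56 RPKM, with a log2 interval of −0.14 to 1.51. Car5b, a mitochondrial carbonic anhydrase, was at 6.70 and 5.99 RPKM, and Car14, a membrane-bound one, at 3.38 and 2.56 RPKM. Genes under the limit on average RPKM were picked after their values were seen. Among them, Car1, the other carbonic anhydrase abundant in red cells, had 5 reads in the control and 0 in the Bcas2F/-;Vasa-Cre library, which is too few to compare. Car8 had 36 and 11 reads with a log2 interval of −2.79 to −0.66, and Slc4a10 had 8 and 25 reads with a log2 interval of 0.49 to 3.05.

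Genes of the red cell membrane and skeleton showed both kinds of behaviour. Of 17 listed, 8 had an average RPKM of at least 1, and 5 of these were lower and 3 higher, with a median log2 ratio of −0.08. On the scale of RPKM + 1, Ermap, an erythroid membrane protein, was the only one past 1.5-fold, at 1.78 RPKM in the control and 0.781 RPKM in the Bcas2F/-;Vasa-Cre library, from 61 and 26 reads, a log2 ratio of −0.64. By plain RPKM it was 2.28-fold lower, and Aqp1 and Rhd were 1.62-fold and 1.57-fold lower. Aqp1, the water channel of red cells and endothelium, was at 5.89 and 3.64 RPKM, a log2 ratio of −0.57, and Rhd, a Rhesus blood group protein, at 2.85 and 1.82 RPKM, a log2 ratio of −0.45. Sptb (β-spectrin, 18.5 and 19.8 RPKM), Epb41 (protein 4.1, 27.0 and 26.3 RPKM) and Gypc (glycophorin C, 7.74 and 8.04 RPKM) were close to level. These 3 are also transcribed outside red cells.

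Low values hid part of this group, since many of its genes lay under the limit on average RPKM. With a minimum of 30 reads in both libraries together in its place, a limit added after the data were seen, 14 of the 17 genes could be compared, 10 lower and 4 higher, with a median log2 ratio of −0.37. Of these 14, 2 were lower by more than 2-fold, against 0.187% of 15496 entries with that many reads, and 3 by more than 1.5-fold, against 1.25%. The following genes lay below the limit on average RPKM or outside the naming rule and were picked after their values were seen. Epb42 (protein 4.2, which binds band 3) had 46 reads in the control and 3 in the Bcas2F/-;Vasa-Cre library, a 14.9-fold difference with a log2 interval of −6.23 to −2.26. Rhag, the Rhesus-associated glycoprotein, had 22 reads and 1 read, a 21.4-fold difference with a log2 interval of −9.78 to −1.79. Kel, the Kell blood group protein, had 26 reads in the control and 0 in the Bcas2F/-;Vasa-Cre library, at least 8.41-fold lower with 0 set to a floor of 3 reads per library. The counting intervals of these 3 genes, all for membrane proteins of red cell precursors, were wide and overlapped that of Slc4a1. The skeleton genes Ank1 (ankyrin 1) and Dmtn (dematin) were lower by a smaller margin, with 82 and 36 reads and 65 and 29 reads.

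Genes of the red cell cytosol and of late red cell development were divided in the same way. Of 14 listed, 8 had an average RPKM of at least 1, 6 lower and 2 higher, with a median log2 ratio of −0.11. With at least 30 reads in both libraries together, 10 could be compared, 8 lower and 2 higher, 3 of them past 1.5-fold, with a median of −0.20. Among all 15496 entries with that many reads, 7280 were lower, and 1.25% were lower by more than 1.5-fold. Isg20, a nuclease gene, was the only one of the 8 past 1.5-fold, with 37 reads in the control and 18 in the Bcas2F/-;Vasa-Cre library and a log2 ratio of −0.59. Prdx2, an abundant red cell peroxiredoxin that other cells also use, was at 260 and 248 RPKM, and Bpgm, the bisphosphoglycerate mutase of red cells, at 43.4 and 39.2 RPKM. Among genes of lower level, again picked after their values were seen, Hemgn (hemogen, a nuclear protein of blood cell precursors) had 44 and 3 reads, a 14.2-fold difference with a log2 interval of −6.16 to −2.19. Trim10, a ubiquitin ligase of terminal red cell differentiation, had 51 and 14 reads, a 3.54-fold difference with a log2 interval of −2.79 to −0.95. Ahsp, the α-globin chaperone, was not matched to an entry.

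Of 10 erythroid regulators listed, 5 had an average RPKM of at least 1, 4 lower and 1 higher, none past 1.5-fold on the scale of RPKM + 1, with a median log2 ratio of −0.05. Gata1, which red cell precursors and Sertoli cells both transcribe, was at 27.0 RPKM in the control and 25.2 RPKM in the Bcas2F/-;Vasa-Cre library. Nfe2, a regulator of globin genes and platelets, was at 1.53 and 0.790 RPKM (36 and 18 reads), a log2 ratio of −0.50. By plain RPKM it was 1.94-fold lower, with a log2 interval of −1.86 to −0.10. Klf1, the red cell factor that binds CACCC motifs, lay under the limit and was picked after its values were seen, with 24 and 17 reads and a log2 interval of −1.44 to 0.50, so no difference was detectable at this depth. Over the lists of haem enzymes, membrane and skeleton, iron, regulators and cytosol together, 37 genes had an average RPKM of at least 1. Of these, 25 were lower and 12 higher, 3 were past 1.5-fold and none past 2-fold on the scale of RPKM + 1, and their median log2 ratio was −0.09. Among all 14831 entries, 6873 were lower and 7958 higher, and 1.69% were lower by more than 1.5-fold.

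**Figure D4:**
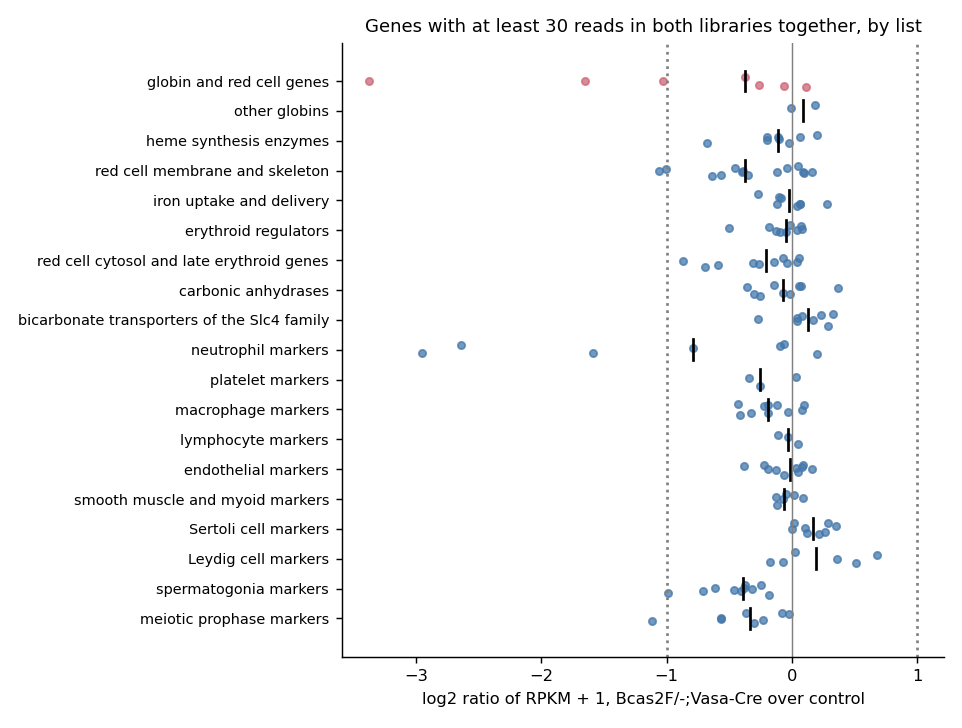
Log2 ratio of RPKM + 1, Bcas2F/-;Vasa-Cre over control, of every listed gene with at least 30 reads in both libraries together, 1 row per list, with the list's median as a black bar and dotted lines at 2-fold. The red cell genes (red) spread from −3.38 to 0.11, neutrophil markers reach −2.95, spermatogonia markers all lie below 0 and Sertoli cell markers all lie above 0.

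Markers of other blood cells were examined beside the red cell genes. Of 15 neutrophil markers, 8 had an average RPKM of at least 1, and 7 of these were lower and 1 higher. Of these 8, 5 were lower by more than 1.5-fold and 4 by more than 2-fold, against 1.69% and 0.378% of all 14831 entries. The summed level of all 15 markers was 36.5 RPKM in the control and 11.2 RPKM in the Bcas2F/-;Vasa-Cre library. In the control, S100a8 gave 9.35 RPKM and S100a9 9.83 RPKM of this sum. S100a9 and S100a8, the subunits of calprotectin, had 101 and 4 reads and 73 and 5 reads, with log2 ratios of −2.95 and −2.64. The granule protein genes Ngp (67 and 6 reads) and Camp (46 and 21 reads) and the stefin gene Stfa2 (17 and 2 reads) were past 1.5-fold as well. Stfa1 was listed at 0 in both libraries. The rest of the 8 were outside the naming rule and picked after their values were seen. They were Prtn3 (34 and 30 reads), Lcn2 (46 and 42 reads) and Mmp9 (64 and 75 reads), none past 1.5-fold. Of all 15 neutrophil markers, whatever their level, 12 were lower and 2 higher by plain RPKM, many of them from few reads. Among all 39695 entries, 11394 were lower and 13820 higher on that basis. The neutrophil markers were thus mostly lower, as Slc4a1 and Car2 were, but by unequal margins. Their part in the result was not tested.

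Other blood cell lists differed less. Both platelet markers with an average RPKM of at least 1 were lower, Pf4 at 18.5 and 15.4 RPKM and Itga2b at 2.82 and 2.01 RPKM, and the summed level of the 10 listed was 23.3 and 19.1 RPKM. Of 9 macrophage markers with an average RPKM of at least 1, 7 were lower and 2 higher, none past 1.5-fold, with a median of −0.19 and a summed level of 146 and 119 RPKM. Lyz2 and C1qb, the highest of them, were at 59.1 and 43.6 RPKM and at 19.3 and 14.3 RPKM. Lymphocyte markers were near the limit of detection, with a summed level of 4.36 and 3.92 RPKM, and Cd4 was the only one with an average RPKM of at least 1, at 1.11 and 1.06 RPKM. The globin sum, at 946 and 930 RPKM, was nearly level beside them, and the part of these cells in the red cell values was not tested.

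Markers of vessels and of the tubule wall differed little. Endothelial markers, 5 lower and 5 higher of 10, had a median of −0.01 and a summed level of 73.7 and 68.8 RPKM, with Cdh5 at 18.7 and 17.9 RPKM and Egfl7 at 17.4 and 13.1 RPKM. Smooth muscle and myoid markers, 4 lower and 2 higher of 6, had a median of −0.06 and a summed level of 539 and 504 RPKM, with Acta2 at 344 and 314 RPKM and Tagln at 110 and 106 RPKM. None of the genes of either list was past 1.5-fold.

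Markers of the testis cells themselves differed between the libraries, and their part in the red cell values was not tested. All 10 spermatogonia markers were lower in the Bcas2F/-;Vasa-Cre library, with a median of −0.39 and a summed level of 792 and 601 RPKM. Of these, 3 were lower by more than 1.5-fold, against 1.69% of all 14831 entries. The 3 were Nanos3 (15.2 and 7.16 RPKM), Sall4 (26.6 and 15.9 RPKM) and Stra8 (87.2 and 56.8 RPKM), and the highest was Uchl1 at 279 and 224 RPKM. All 8 meiotic prophase markers were lower, with a median of −0.34 and a summed level of 172 and 128 RPKM, and Smc1b was the only one past 1.5-fold on the scale of RPKM + 1, at 25.6 and 11.3 RPKM. Tex101 and Sycp2, with the highest average RPKM of that list, were at 46.8 and 39.8 RPKM and at 23.3 and 22.03 RPKM. All 8 Sertoli cell markers with an average RPKM of at least 1 were higher, none past 1.5-fold, with a median of 0.17 and a summed level of 3519 and 3861 RPKM, and Inha was at 296 and 345 RPKM. Of 6 Leydig cell markers, 2 were lower and 4 higher, with a median of 0.20 and a summed level of 387 and 431 RPKM. Hsd3b1 was at 189 and 168 RPKM. Cyp17a1, the only one past 1.5-fold, was higher, at 94.8 and 152 RPKM. Among all 14831 entries, 6873 were lower and 7958 higher, and 233 were higher by more than 1.5-fold.

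The genes whose ratio was nearest to the median of the red cell genes, among those with an average RPKM of at least 5, were Mknk2, Angel1, Tex14, Ctps, Klf4, Btbd18, Polr2e and Tbl3, with log2 ratios that all rounded to −0.38. Likeness over 2 libraries separates genes little, since 236 of 10657 genes lay within 0.05 of that median. The list held no other red cell gene, and the median itself is the value of Alas2, far from Slc4a1 on the lower side and Hbb-bs on the upper side.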

How the data were processed

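Total RNA of whole testes was made into libraries with the NEBNext Ultra kit. Per the study's methods and the submitters' processing notes, the authors removed adaptors and low-quality reads, aligned paired reads to the mouse genome (mm10) with TopHat2 2.0.9, used HTSeq to count the reads of each gene and deposited the RPKM of every gene entry, zeros included, in 1 table per library. The strand setting, the annotation release and the gene lengths are not given in the sources used here. A short mean transcript length behind the deposited RPKM raises the level of a gene, but not its ratio between libraries. RPKM does not adjust for a change in RNA composition.

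Of 39695 entries, 517 had no Ensembl identifier and 37606 (94.7%) were matched to GENCODE M21 (GRCm38) for symbols and positions. Whole reads were recovered by finding library sizes and whole-base gene lengths at which the RPKM of a gene gives whole reads. The sizes 19918750 and 19331687 were given by 1318 and 1326 single-transcript genes. Of 21201 genes above 0 in both libraries, 21124 (99.6%) gave whole reads within 1e-05. Where several lengths gave whole reads, the one nearest to the annotated mean was taken, so the reads of a gene, and the width of its interval, may be off by a whole factor. Recovered reads added up to 100.4% and 100.1% of the library sizes. The procedure was tested on simulated libraries with known reads.

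Log2 ratios were log2((RPKM + 1) in Bcas2F/-;Vasa-Cre over (RPKM + 1) in control), for 14831 entries with an average RPKM of 1 or more. The pseudocount understates the ratio of low genes. Intervals are 95% Clopper-Pearson intervals of the recovered reads, for sums of genes over their shares of library reads. No test between genotypes, no p-value and no paired analysis was made, since each group had 1 library. Other settings tried were pseudocounts of 0.1 and 0.01, the median of all entries set to 0, values rescaled to the same RPKM total in both libraries, no limit or a limit of 5 on average RPKM, and each globin pair summed as 1 gene. A minimum of 30 reads was added after the data were seen.

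The 7 genes and the gene lists were chosen with earlier results of these data known. Named were the 7 genes, Bcas2, other listed red cell, carbonic anhydrase and Slc4 genes with an average RPKM of 1 or more, the 2 highest genes of each cell type list with any past 1.5-fold, and the 8 genes nearest to the median of the 7. Others are named as picked after their values were seen, or as listed at 0. Values of some listed genes are not reported here, though the lists' counts and medians include them. Sequences came from GENCODE M21 transcripts and RefSeq promoters (GRCm38.p6). Python 3.11.15 with numpy 2.4.6, pandas 2.3.3, scipy 1.17.1, matplotlib 3.10.9 and Biopython 1.88 was used.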

Additional observations from a re-analysis of the deposited data

How the results depend on the processing

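Slc4a1, Car2 and Hbb-bt were the red cell genes lower by more than 2-fold under both pseudocounts and both scalings, and with each globin pair summed as 1 gene the count was 2, since Hbb-bt was then part of the β sum. The median of the 7 genes ran from −0.40 to −0.36 over these settings. The log2 ratio of the summed globin genes was −0.03, −0.04 with the median of all entries set to 0, and 0.003 with RPKM rescaled, so its sign was not stable. These values lay inside the counting interval of the main setting, −0.07 to 0.01. No interval was made for the other settings. Pseudocounts of 0.1 and 0.01 gave −4.48 and −4.67 for Slc4a1 and −2.29 and −2.39 for Car2, because a smaller pseudocount shrinks low values less. The background counts depended on the settings. Entries lower by more than 2-fold numbered 126 and 132 with pseudocounts of 0.1 and 0.01, 94 with RPKM rescaled, 16 with an average RPKM of at least 5 and 29 with at least 30 reads, against 56. Those lower by more than 1.5-fold numbered 457 and 485 with the smaller pseudocounts, 468 with no limit on average RPKM and 104 with an average RPKM of at least 5, against 251. The median of the red cell membrane and skeleton list was −0.08, −0.37 with at least 30 reads, −0.28 with RPKM rescaled and −0.39 with no limit on average RPKM, but 0.0485 with an average RPKM of at least 5, a limit that leaves out its low genes such as Ermap and Rhd. The median of the cytosol and late erythroid list was −0.11, −0.20 with at least 30 reads and −0.04 with an average RPKM of at least 5. The median of the iron list turned from −0.02 to 0.005 with RPKM rescaled. No paired analysis was possible because each group had 1 library. Nothing here measures the spread between mice, and genes with few reads, such as Epb42, Kel and Rhag, have wide intervals.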
